A study of Mus musculus with 9 samples.

Results

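Cytoplasmic ribosomal protein genes were examined on 9 arrays of RNA from the lateral nasal gland of mice, which secretes into the front of the nasal cavity. The family was taken as the probe sets whose only gene symbol in the platform annotation starts with Rpl or Rps and a digit, or is Rpsa, Rplp0, Rplp1 or Rplp2, with the Rps6k kinases left out. This gave 101 of 22626 probe sets, for 49 of the 12393 genes with a probe set of their own (26 of the large subunit and its stalk, 23 of the small subunit, divergent copies included). Of these genes 23 had more than 1 probe set and the highest number for a gene was 6. A further 102 probe sets name the family but carry several symbols, mostly of pseudogenes, and are no members; some of them are given beside members of the same gene.

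The arrays came from wild-type 129/Sv males (2 arrays), wild-type B6 (C57BL/6) males (4 arrays) and Cyp2g1-null males on a mixed 129/Sv and C57BL/6 background (3 arrays). Each array carried RNA of glands pooled from 10 mice aged 2 to 3 months. Cyp2g1 encodes a cytochrome P450 of the nasal mucosa, and the null line holds alleles of both strains. The labels do not say whether the pools of a group were dissected separately, so p-values measure only the spread between these arrays, which may be technical, and the number of arrays limits the precision. In bulk RNA of a gland, fewer cells of a type and less RNA per cell cannot be told apart.

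A cytoplasmic ribosome carries close to 1 copy of each ribosomal protein, and cells keep the mRNAs of the family in step. These mRNAs are short and abundant, and most begin with a run of pyrimidines (C and T bases), through which growth signals control their translation together. Many ribosomal protein genes have processed pseudogenes of near-identical sequence, and a probe set can therefore pick up more than a single transcript. On Affymetrix arrays the suffix _x_at marks probe sets with probes that can match other transcripts, and _s_at marks those whose probes are shared by several transcripts. Of the 101 members 40 were of the first type, 2 of the second, 28 of the type _a_at and 31 of the plain type.

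The start sites show a feature that was more frequent in the family than among all genes and that the selection did not use. RefSeq promoters (GRCm38.p6) were found for 42 of the 49 genes, 50 promoters in all. In the 50 bases from 20 before to 30 after the annotated start, the longest unbroken run of C and T had a median of 7 bases in the family and 5 over all 32841 promoters. A run of at least 8 bases was found in 46% of the family's promoters and in 19% of all promoters. Windows of 4 genes whose probe sets departed from the family are printed 5′ to 3′, with the longest run of C and T in capitals. They lie at chr3:90213619-90213668 on the minus strand for Rps27, chr4:86857338-86857387 on the minus strand for Rps6, chr5:115559447-115559496 on the plus strand for Rplp0 and chr7:3704021-3704070 on the plus strand for Rps9.
Rps27: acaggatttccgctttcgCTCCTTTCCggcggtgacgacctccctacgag
Rps6: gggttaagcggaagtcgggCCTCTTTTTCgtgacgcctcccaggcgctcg
Rplp0: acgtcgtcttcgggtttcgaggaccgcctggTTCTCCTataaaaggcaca
Rps9: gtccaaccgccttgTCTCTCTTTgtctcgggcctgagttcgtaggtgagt
The runs are 9, 10, 7 and 9 bases long. The runs of Rps27, Rps6 and Rps9 are longer than the family median of 7 bases, and that of Rplp0 equals it. A run within a window need not lie at the first base of the mRNA. The arrays measure RNA and say nothing on how these windows act.

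The values are MAS5 signals, a summary of each probe set on a linear scale, with every array scaled to a common level. Differences were computed on log2(signal + 16), which understates changes of low signals. A probe set was tested when its signal exceeded the array's median on at least 2 arrays. Of the 101 members 86 were tested, for 46 genes. The other 15 had no array above 456.1, and they included every probe set of Rpl3l, Rpl39l and Rps15a-ps6. Rpl3l encodes a copy of Rpl3 used in striated muscle and Rpl39l a copy of Rpl39 used in the testis. The groups were compared with limma over all 12575 tested probe sets, and a probe set was called at an adjusted p (Benjamini-Hochberg) under 0.05.

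Of the 86 tested members 77 were called in none of the 3 pairwise comparisons and 9 in at least 1, each from a different gene, which is 10.5% beside 6.43% of all tested probe sets. The member signals took between 6.35% and 7.36% of the summed signal of an array. The share was 6.35% and 6.91% on the 129/Sv arrays, ran from 6.94% to 7.36% on the B6 arrays and from 6.73% to 6.81% on the null arrays. The B6 shares thus lay highest, by a narrow margin over 129/Sv array 1, and the 129/Sv array 2 lowest. With the family's probe sets of several symbols added, the shares were 14.1% and 15.5% on the 129/Sv arrays. They ran from 15.3% to 16.4% on the B6 arrays and from 15% to 15.2% on the null arrays, so 129/Sv and B6 overlapped. The median signal of the 65 tested members with a mean signal of 10000 or more, a line drawn after the values were seen, ranged from 48356 on 129/Sv array 2 to 56749 on B6 array 1, with overlapping groups.

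**Figure D1:**
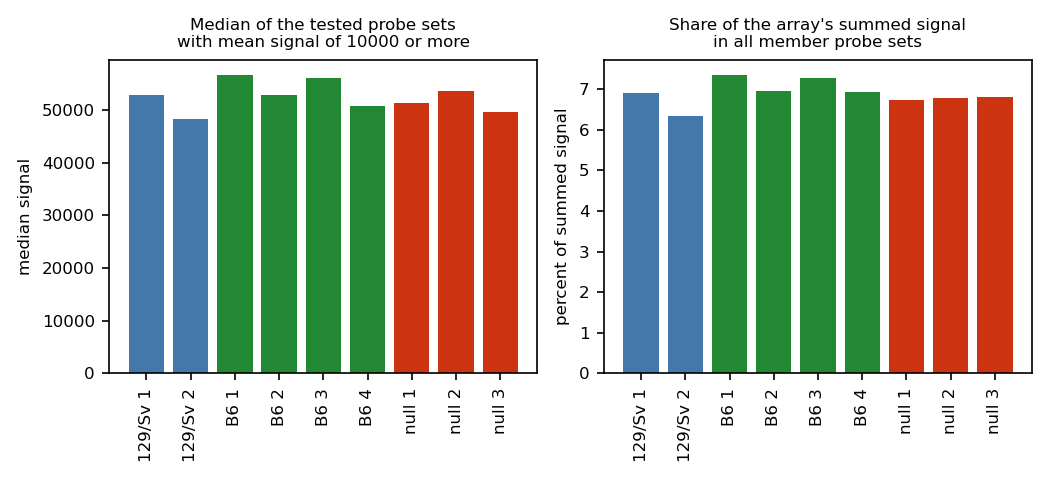
Left, median signal of the tested ribosomal protein probe sets with a mean signal of 10000 or more on each of the 9 arrays; right, percent of the array's summed signal in all member probe sets. Bars start at 0 and are coloured by group (blue 129/Sv, green B6, red Cyp2g1-null); the medians run from 48356 to 56749 and the shares from 6.35% to 7.36%.

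The differences of single members lay close to the family median. Between null and B6 arrays the median over the 86 members was -0.07, with quartiles of -0.14 and -0.02, beside a median of 0.02 over all tested probe sets. The members' median was -0.033 with quantile normalization and -0.038 with arrays centred on the family median. With arrays scaled to equal medians it was -0.096. Negative differences were seen in 68 of the 86 members, beside 5923 of all 12575 tested probe sets. At a mean signal of 10000 or more they were seen in 54 of 65 members and 584 of 938 probe sets. The medians there were -0.069 and -0.04. Between null and 129/Sv arrays the median was 0.02, with quartiles of -0.04 and 0.08. It was -0.044 without 129/Sv array 2, -0.007 with quantile normalization and -0.036 with arrays scaled to equal medians, so its sign is not settled. Between B6 and 129/Sv arrays the median was 0.11 (quartiles 0.03 and 0.20), with 69 of 86 positive. Over all tested probe sets it was -0.01, with 6032 of 12575 positive. At a mean signal of 10000 or more, 53 of 65 members and 553 of 938 probe sets were positive. Their medians were 0.102 and 0.034. The shift of all 86 members was 0.033 without 129/Sv array 2, 0.185 without 129/Sv array 1 and 0.027 with quantile normalization. The 129/Sv array 2 was the lowest of the 9 for 36 of the 86 members. The spread between replicates was small, with a median SD of 0.10 on the log2 scale for members and 0.21 for all tested probe sets. Among probe sets with a mean signal of 10000 or more it was 0.095 for members and 0.12 for all.

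**Figure D2:**
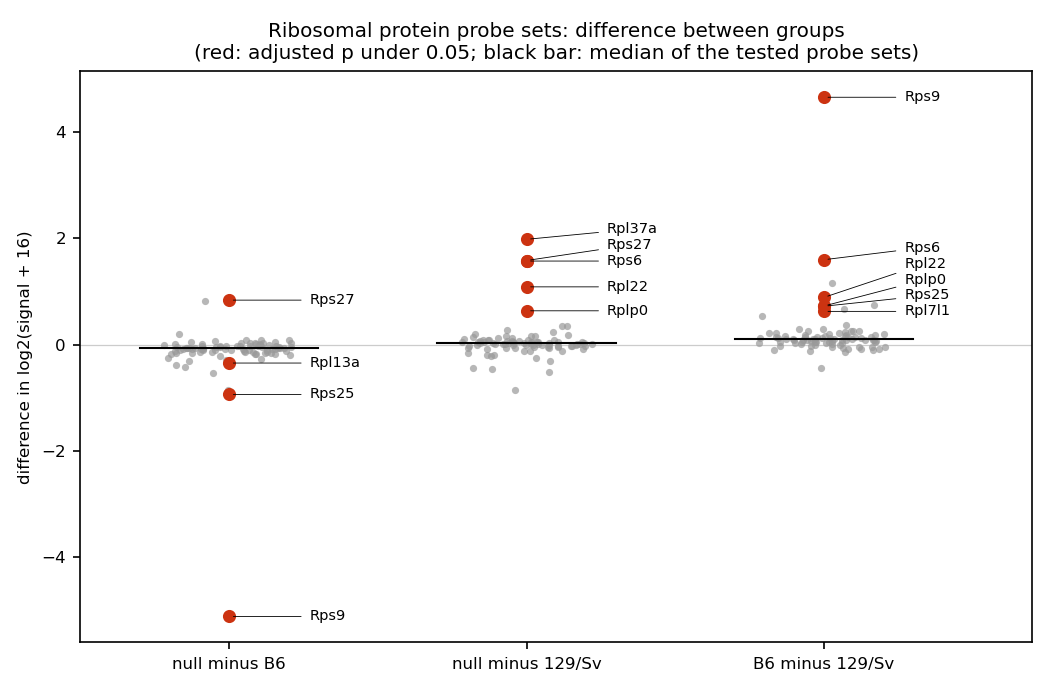
Difference in log2(signal + 16) of the 86 tested members in each pairwise comparison; each point is a probe set, red points have an adjusted p under 0.05 and are labelled by gene, and the black bar is the median. Nearly all points sit within 0.5 of the median, and the Rps9 probe set lies alone at -5.12 and 4.66.

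Beyond 0.5 from the family median lay 5 members between null and B6, 7 between null and 129/Sv and 10 between B6 and 129/Sv arrays. Most of these had a low signal. Of the 65 members with a mean signal of 10000 or more, 0, 2 and 2 did so, and of the 21 members with lower signals 5, 5 and 8. In either class some were called. Calls in at least 1 pairwise comparison numbered 3 of 65 in the higher class (4.62%, beside 7.57% of all tested probe sets of such signals) and 6 of 21 in the lower (28.6%, beside 6.34%). Whether the scanner compressed the highest signals was not tested.

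**Figure D3:**
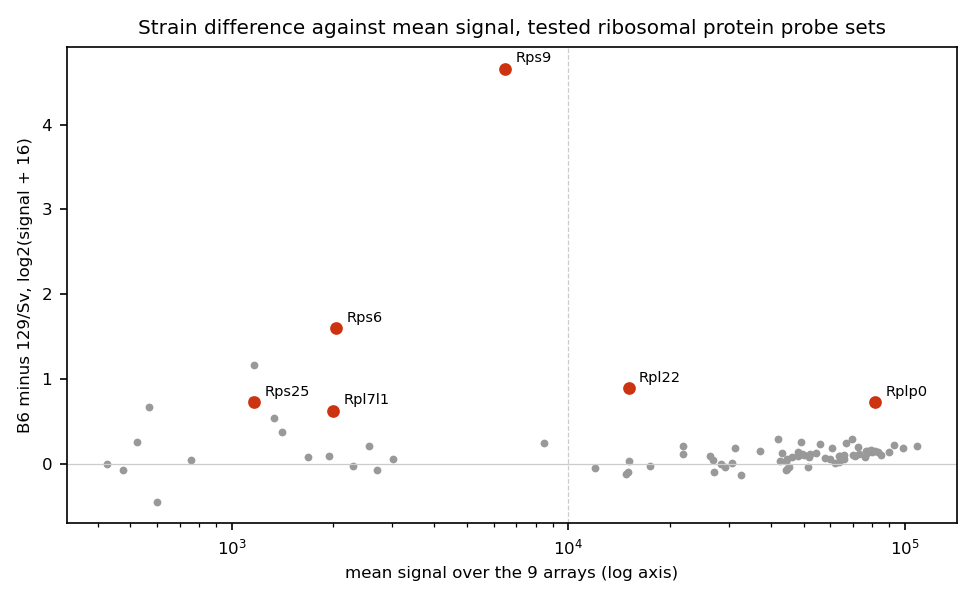
Difference between B6 and 129/Sv, in log2(signal + 16), against the mean signal over the 9 arrays (log axis) for the 86 tested members; red points were called and the dashed line marks a signal of 10000. To the right of the line all but Rpl22 and Rplp0 lie within 0.5 of the family median, and the points spread out to the left.

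Rps27, a zinc-binding protein of the small subunit (gene on chromosome 3), was higher in null than in both wild-type groups at its only single-symbol probe set, 1460699_at. Its signals were 573 and 566 on the 129/Sv arrays, 1037, 676, 996 and 1244 on the B6 arrays, and 1712, 1454 and 2112 on the null arrays. Every null array lay above every wild-type array, and both 129/Sv arrays lay below all B6 arrays. The 129/Sv signals lie just above the medians of their arrays (529.8 and 518.5), so the size of a fold against 129/Sv is uncertain. The null arrays were 3.0-fold above 129/Sv (log2 difference 1.58, SE 0.24, adjusted p = 0.00187). They were 1.79-fold above B6 (0.84, SE 0.20, adjusted p = 0.0453). Between B6 and 129/Sv the difference was 0.75 (adjusted p = 0.0791). Measured from the family median, the differences were 0.91 against B6 and 1.56 against 129/Sv.

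Rps27 was the 1 of 86 members called against both strains in the same direction, beside 0.0954% of all tested probe sets (0.0636% higher in null arrays). Both comparisons share the null arrays. The call against 129/Sv held in all 23 alternative fits (highest adjusted p = 0.0246). That against B6 held in 11 of 23 and in 2 of the 9 fits that left out an array. It was lost when 129/Sv array 1 (adjusted p = 0.0577), 129/Sv array 2 (0.0574), B6 array 2 (0.0768) or B6 array 3 (0.0909) was left out. Leaving out null array 1, 2 or 3 gave 0.139, 0.0666 and 0.206. Summed signals of 7 ciliated cell markers, none of them at 0, were also highest in null arrays (19690 to 20750). They did not rise from 129/Sv (13700 to 16060) to B6 (12370 to 15390). Summed gland markers were 374300 to 383000 in 129/Sv, 405700 to 520500 in B6 and 504500 to 628600 in null arrays. Summed macrophage and neutrophil markers also reached their highest value in null arrays and were lowest in B6. The part of these lists in the Rps27 result was not tested.

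A second probe set reads Rps27 together with its retrotransposed copy Rps27rt, and it did not show the rise. Probe set 1415716_a_at had signals of 66819 and 57035 on the 129/Sv arrays, 65722, 63282, 69385 and 58509 on the B6 arrays, and 54043, 61392 and 63453 on the null arrays. The groups overlapped, with a log2 difference of -0.11 between null and B6 (SE 0.09, adjusted p = 0.612). Between null and 129/Sv it was -0.05 (SE 0.10, adjusted p = 0.91). Rps27l, the paralogue of Rps27 that p53 can induce (chromosome 9), was measured by 3 probe sets. Their differences ran from -0.19 to -0.07 against B6 and from -0.07 to 0.04 against 129/Sv, and none was called. No probe set carried Rps27a alone.

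**Figure D4:**
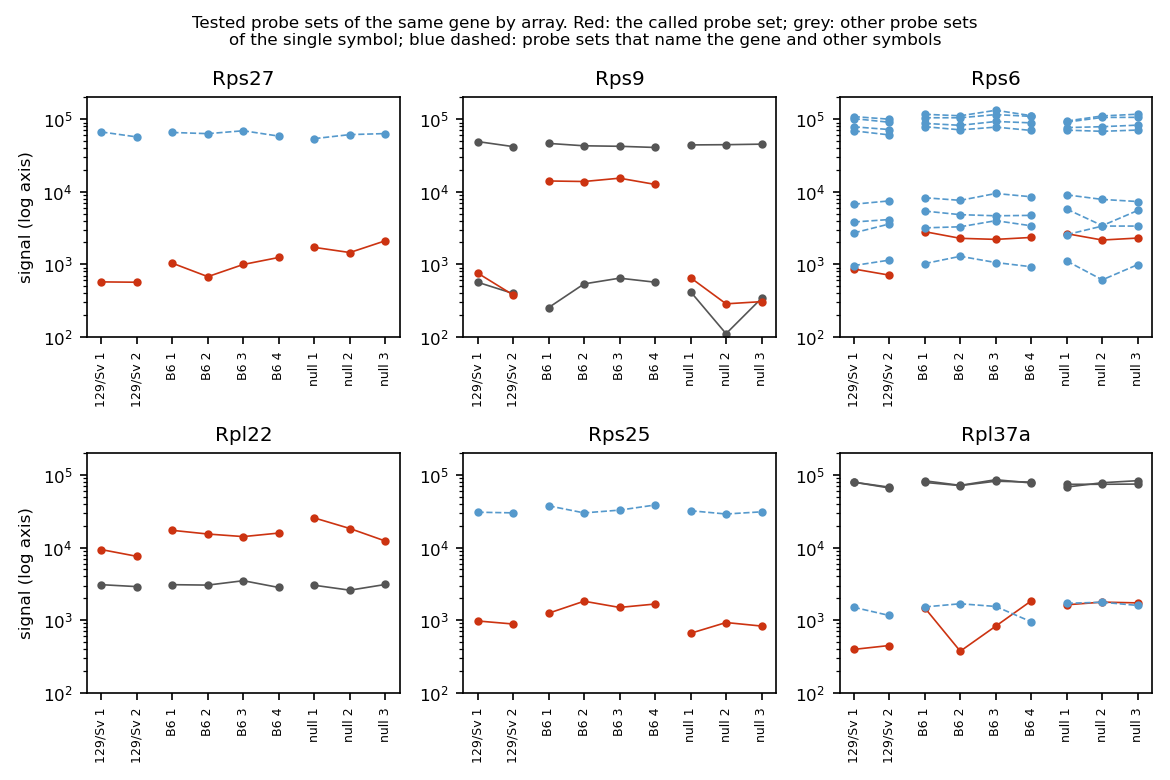
Signal (log axis) of all tested probe sets of 6 genes on each array, joined within a group for legibility only; red is the called probe set, grey other probe sets of the same single symbol, blue dashed probe sets naming the gene together with other symbols. For each gene the red line shifts between groups while at least 1 other line has no called difference.

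Rps9, a small subunit protein near the mRNA entry of the ribosome (chromosome 7, as is Cyp2g1), showed the largest differences of the tested members, at probe set 1434624_x_at. Its signals were 759 and 379 on the 129/Sv arrays, 14096, 13856, 15395 and 12642 on the B6 arrays, and 653, 285 and 306 on the null arrays. The B6 arrays stood apart from all 5 others, and the 129/Sv and null arrays overlapped. The log2 difference was 4.66 between B6 and 129/Sv (SE 0.29, adjusted p = 2.78e-07) and -5.12 between null and B6 (SE 0.26, adjusted p = 1.16e-07). Between null and 129/Sv it was -0.46 (SE 0.31, adjusted p = 0.637). The low signals lie near the array medians of 518.5 to 550 or below them, so the size of the fold is uncertain, and it ranged from 4.17 to 5.15 for B6 against 129/Sv over 21 alternatives. In all 21 the calls held.

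The other Rps9 probe sets did not follow. Probe set 1433689_s_at averaged 45610 ± 5139 (SD, n = 2) on the 129/Sv arrays, 43170 ± 2368 (SD, n = 4) on the B6 arrays and 44730 ± 568.2 (SD, n = 3) on the null arrays. Its log2 difference between B6 and 129/Sv was -0.08 (SE 0.09, adjusted p = 0.731). The third, 1426958_at, had signals from 111 to 644 on the 9 arrays and differences of -0.86 against either strain (adjusted p = 0.414 against B6 and 0.607 against 129/Sv).

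Rps6, the small subunit protein phosphorylated by the S6 kinases (chromosome 4), was low in 129/Sv at probe set 1416142_at. Signals were 863 and 709.5 on the 129/Sv arrays, 2818, 2283, 2208 and 2347 on the B6 arrays, and 2644, 2163 and 2302 on the null arrays. B6 and null arrays overlapped and both lay above 129/Sv. Signals were 3.03-fold higher in B6 (log2 difference 1.60, SE 0.15, adjusted p = 1.29e-05) and 2.98-fold higher in null than in 129/Sv arrays (1.57, SE 0.16, adjusted p = 6.14e-05), and both calls held in all 23 alternative fits. The difference between null and B6 was -0.03 (adjusted p = 0.961). Probe set 1416141_a_at, annotated to Rps6 and the pseudogene Rps6-ps4, had signals from 94523 to 132856, with 0.18 between B6 and 129/Sv (SE 0.10, adjusted p = 0.402) and 0.04 between null and 129/Sv (adjusted p = 0.94). The other tested probe sets with both symbols had 0.03 to 0.30 between B6 and 129/Sv, and none was called.

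Rplp0, the acidic protein that anchors the ribosomal stalk (chromosome 5), is often used as a reference gene in quantitative PCR. Its 1 probe set had signals of 58318 and 52064 on the 129/Sv arrays, 90423, 88011, 97729 and 88940.0 on the B6 arrays, and 78406, 86545 and 92742 on the null arrays. Both 129/Sv arrays lay below all others, and B6 and null arrays overlapped. Rplp0 was 1.65-fold higher in B6 than in 129/Sv (log2 difference 0.73, SE 0.09, adjusted p = 0.000161) and 1.56-fold higher in null than in 129/Sv (0.64, SE 0.09, adjusted p = 0.00151). Both calls held in all 23 alternative fits, and both differences are under 2-fold. No other probe set names Rplp0, so this difference could not be set beside a second reading.

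Rpl22, a large subunit protein that binds viral and cellular RNA hairpins (chromosome 4), was also low in 129/Sv at 1416603_at. Signals were 9384 and 7578 on the 129/Sv arrays, 17289, 15378, 14166 and 15859 on the B6 arrays, and 25628, 18319.7 and 12306 on the null arrays. The null arrays varied most and overlapped with B6, and all 7 lay above 129/Sv. The log2 difference was 0.89 for B6 (SE 0.21, adjusted p = 0.0205) and 1.09 for null (SE 0.22, adjusted p = 0.0166), each against 129/Sv. The first was lost when 129/Sv array 1 (adjusted p = 0.0591) or 129/Sv array 2 (0.232) was left out, and also without B6 arrays 1 and 2 (0.0656). The second was lost without 129/Sv array 2 (0.221) and null array 2 (0.0611). Without the variance trend they had 0.0971 and 0.109. In all, 19 and 20 of 23 alternative fits kept these calls. The other probe set, 1448398_s_at, had signals from 2586 to 3494 and differences of 0.05 and -0.05 in these comparisons (adjusted p = 0.887 and 0.946).

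**Figure D5:**
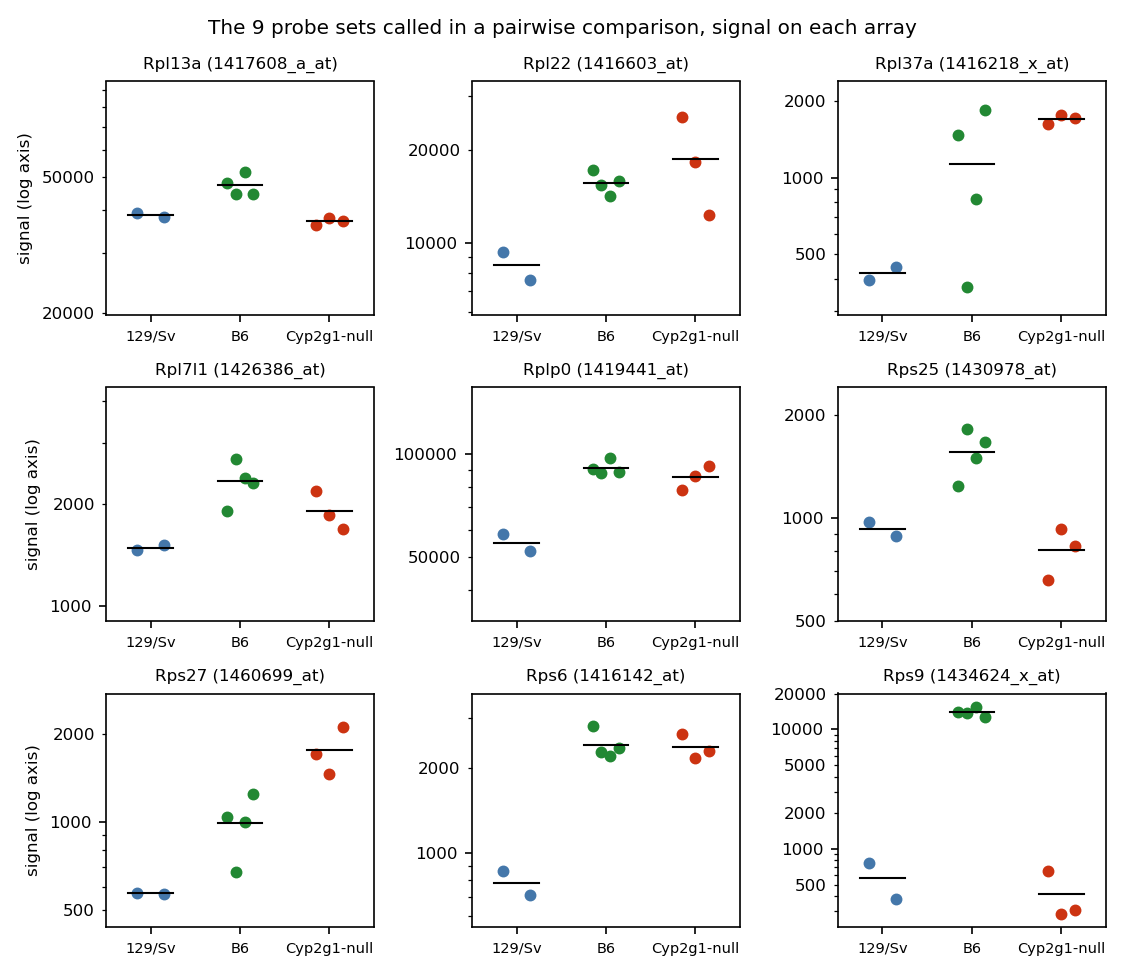
Signal (log axis) on each array of the 9 member probe sets called in a pairwise comparison; points are arrays, black bars group means, colours as for the bars of signal by array. Rps6, Rplp0 and Rpl22 are lowest in 129/Sv, Rps9 and Rps25 are highest in B6, and Rps27 is highest in null arrays.

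Rps25, a small subunit protein used by some viral internal ribosome entry sites (chromosome 9), was highest in B6 at 1430978_at. Signals were 974 and 884 on the 129/Sv arrays, 1245, 1823, 1496 and 1667 on the B6 arrays, and 659, 926 and 828 on the null arrays. The null and 129/Sv arrays overlapped below all B6 arrays. Rps25 fell by 0.94 on the log2 scale from B6 to null arrays (SE 0.17, adjusted p = 0.00802; 0.0508 without null array 1). B6 also exceeded 129/Sv (0.72, SE 0.19, adjusted p = 0.0423), a call kept in 10 of 22 alternatives. That call was lost without 129/Sv array 1 or 2 (0.149 and 0.273), B6 array 2, 3 or 4 (0.103, 0.0751 and 0.0933), or null array 3 (0.0583). The probe set shared by Rps25, Gm6988 and Gm4963 had signals from 29027 to 38633, with -0.17 between null and B6 (SE 0.09, adjusted p = 0.423).

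Rpl13a, a large subunit protein that also silences inflammatory mRNAs after interferon (chromosome 7), was lower in null than B6 arrays at 1 of its 4 tested single-symbol probe sets. Probe set 1417608_a_at had signals of 39102 and 38171 on the 129/Sv arrays, 47930.5, 44599, 51767 and 44476 on the B6 arrays, and 36089, 37792 and 37221 on the null arrays. All B6 arrays lay above all others. The null arrays were 1.27-fold lower than B6 (log2 difference -0.35, SE 0.07, adjusted p = 0.0268), and B6 and 129/Sv differed by 0.29 (adjusted p = 0.0712). Here the other probe sets had the same sign against B6, with -0.39, -0.22 and -0.28 for the other single-symbol probe sets (adjusted p = 0.253, 0.259 and 0.0593). The probe set shared with Gm11478, 1435873_a_at, fell from B6 to null arrays by itself (-0.34, SE 0.08, adjusted p = 0.0346). It was also called higher in B6 than in 129/Sv (0.33, SE 0.09, adjusted p = 0.0412). Between null and 129/Sv it had -0.01 (adjusted p = 0.988). The call of 1417608_a_at was lost without B6 array 3 (adjusted p = 0.0847). It was also lost when any null array was left out (0.11, 0.0909 and 0.101). The same held with each array centred on the family median (0.053), with no filter (0.0985) and without the variance trend (0.155), and 14 of 21 alternative fits kept it.

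The remaining called members were Rpl37a and Rpl7l1. Rpl37a, a small zinc-finger protein of the large subunit (chromosome 1), had signals of 395 and 447 on the 129/Sv arrays, 1474, 373, 827 and 1844 on the B6 arrays, and 1628, 1771 and 1728 on the null arrays at 1416218_x_at. The B6 arrays spanned the range of both other groups. Both 129/Sv signals and that of B6 array 2 lie below the array medians of 518.5 to 550, so the size of a difference is uncertain. The null arrays were higher than 129/Sv (log2 difference 1.98, SE 0.46, adjusted p = 0.0428). This call was kept in 11 of 21 alternatives and lost without 129/Sv array 1 or 2 (0.2 and 0.212) and B6 array 3 (0.0585). Leaving out null array 1, 2 or 3 gave 0.115, 0.131 and 0.115. The 2 other single-symbol Rpl37a probe sets had signals from 66381 to 86224, with differences of 0.07 and 0.02 (adjusted p = 0.882 and 0.966). The probe set shared with Mir682 had 0.35 (adjusted p = 0.602).

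Rpl7l1 (chromosome 17), a divergent relative of Rpl7, had signals of 1461 and 1512 on the 129/Sv arrays, 1899.7, 2703, 2374 and 2304 on the B6 arrays, and 2183, 1848 and 1684 on the null arrays at 1426386_at. Both 129/Sv arrays lay below all others. B6 was higher than 129/Sv (log2 difference 0.63, SE 0.16, adjusted p = 0.0315), with 12 of 22 alternatives keeping the call. It was lost without 129/Sv array 1 or 2 (0.192 and 0.159) and B6 array 2, 3 or 4 (0.0743, 0.0717 and 0.0584). Its second probe set, 1452049_at, had 0.21 (SE 0.17, adjusted p = 0.572).

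By comparison, 4 of the 86 members were called between null and B6 arrays, 1 higher (Rps27) and 3 lower (Rps9, Rps25 and Rpl13a), beside 2.18% of all tested probe sets (1.11% higher and 1.07% lower). Between null and 129/Sv arrays 5 were called and all were higher (Rps27, Rps6, Rpl37a, Rpl22 and Rplp0), beside 2.04% (1.41% higher). Against the mean of both strains 3 were called, beside 1.22% (0.755% higher and 0.469% lower), with Rps27 (1.21, adjusted p = 0.0054) and Rps6 (0.77, adjusted p = 0.00643) higher and Rps9 (-2.79, adjusted p = 2.26e-05) lower. In that contrast the Rps6 and Rps9 values combine null arrays that resemble 1 strain with a difference between the strains. The call of Rps27 was lost without null array 3 (adjusted p = 0.0549) and that of Rps6 without null array 1 (0.0704). Between B6 and 129/Sv 6 members were called, all higher in B6 (Rps9, Rps6, Rplp0, Rpl22, Rps25 and Rpl7l1). This is 6.98% of the members beside 5.19% of all tested probe sets (2.92% higher in B6), near the background over both directions.

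Where a gene had several single-symbol readings, they mostly differed little. Of 19 genes with at least 2 tested single-symbol probe sets, 15 had all of them within 0.5 of each other in every pairwise comparison. In 3 genes they lay over 1 apart, Rps9, Rpl37a and Rpl22. Probe sets with several symbols are outside this count, and so are Rps27, Rps6 and Rps25, with 1 tested single-symbol probe set each. Between null and 129/Sv, Rps27 had 1.58 there and -0.05 at 1415716_a_at, and Rps6 had 1.57 and 0.04 at 1416141_a_at. Between null and B6, Rps25 had -0.94 and -0.17 at its shared probe set. The difference between probe sets of the same gene was not tested.

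Several other members were not called. Rpl14 had signals from 287 to 628 at 1422128_at and -0.51 between null and 129/Sv arrays (SE 0.33, adjusted p = 0.618). Rpl41 had signals from 390.0 to 832 at 1433530_at and -0.45 between B6 and 129/Sv arrays (SE 0.29, adjusted p = 0.471). Rpl35 at 1454856_x_at and Rpl7 at 1426163_x_at came next on the negative side of that comparison, both within 0.5 of the family median, with -0.14 and -0.12 (adjusted p = 0.497 and 0.604). The members with the highest signals, for Rpl41, Rps3a1, Rpl4, Rps29 and Rps28, had mean signals from 85130 to 108300. Signals of different probe sets do not rank transcripts. Among them Rpl41 at 1455578_x_at had -0.17 between null and B6 and 0.04 between null and 129/Sv arrays, and neither was called. Rpl12 and Rps4l, with mean signals of 524.5 and 568.7 at 1435655_at and 1452730_at, had 0.25 and 0.67 between B6 and 129/Sv arrays (adjusted p = 0.765 and 0.238). Rpl22l1, the paralogue of Rpl22, had -0.10 between null and B6 and -0.20 between null and 129/Sv arrays (adjusted p = 0.72 and 0.607).

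Other genes of the translation machinery were read against the same shares of called probe sets (2.18% for null against B6, 2.04% for null against 129/Sv, 1.22% against the mean, 5.19% for B6 against 129/Sv). At an unadjusted p under 0.05 these comparisons held 14.4%, 12%, 11.9% and 17.4% of all tested probe sets. Fau, which encodes a small subunit protein fused to a ubiquitin-like peptide, had -0.01 between null and B6 and 0.06 between null and 129/Sv arrays (adjusted p = 0.977 and 0.902). Mitochondrial ribosomal proteins, which build the separate ribosome of the mitochondrion, had 1 of 105 tested probe sets called between null and B6 and 0 in the other comparisons. That was Mrpl57, higher in null arrays (0.45, adjusted p = 0.0406). At an unadjusted p under 0.05 stood 13 of the 105 between null and B6, 5 between null and 129/Sv, 7 against the mean of both strains and 12 between B6 and 129/Sv arrays.

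Of 19 probe sets of elongation and termination factors, 1 was called, for Etf1, the release factor that reads stop codons. It fell from B6 to null arrays (-0.58, SE 0.11, adjusted p = 0.0111) and had -0.45 against 129/Sv (adjusted p = 0.112). Of 69 probe sets of initiation factors 1 was called, for Pabpc1, the poly(A)-binding protein, higher in B6 than in 129/Sv (0.66, adjusted p = 0.00643). Of 65 probe sets of ribosome biogenesis factors 1 was called, for Brix1, higher in B6 than in 129/Sv (0.50, adjusted p = 0.0329). Their median was -0.16 between null and B6 and 0.16 between B6 and 129/Sv arrays. At an unadjusted p under 0.05 stood 17 of the 65 between null and B6, 1 between null and 129/Sv, 6 against the mean and 9 between B6 and 129/Sv. For elongation and termination factors these counts were 5, 1, 1 and 1 of 19, for initiation factors 10, 8, 7 and 7 of 69, and for nascent chain factors 2, 1, 1 and 2 of 19. Of 19 probe sets of nascent chain factors 1 was called, for the chaperone Hspa8 (0.46 between B6 and 129/Sv, adjusted p = 0.0473). For 20 probe sets of RNA polymerase I and its factors, medians ran from -0.11 to 0.07 over the 4 contrasts, and for 18 of mTORC1 and S6 kinase genes from -0.10 to 0.00. None of these was called by limma. At an unadjusted p under 0.05 stood 2, 3, 2 and 5 of the first list and 3, 0, 0 and 1 of the second, for null against B6, 129/Sv and the mean, and for B6 against 129/Sv. The 2 Polr1d probe sets opposed each other, with 0.21 and -0.34 between null and B6 (adjusted p = 0.537 and 0.134). Those of Eif4ebp1, the translation repressor released by mTORC1, had -0.14 and -0.23 (adjusted p = 0.488 and 0.25).

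Cyp2g1, the deleted gene, was measured by 1 probe set. Its signals were 207.5 and 981 in 129/Sv, 748 to 5917 in B6 and 55.7 to 201 in null arrays (log2 difference -4.07 against B6, adjusted p = 0.00268; -1.81 against 129/Sv, adjusted p = 0.325). The ratio of 3-prime to 5-prime signal ran from 2.59 to 2.9 for beta-actin and from 0.966 to 1.19 for Gapdh, with overlapping groups. Of 8 measured markers of the gland, 7 exceeded the array median on some array, and their summed signal was 374300 to 383000 in 129/Sv, 405700 to 520500 in B6 and 504500 to 628600 in null arrays. All 8 markers of T and natural killer cells stayed below the array median on every array. Summed olfactory neuron markers ran from 1818 to 3226 in 129/Sv, 2984 to 12400 in B6 and 2423 to 8114 in null arrays. Summed macrophage and neutrophil markers ran from 40140 to 45640, from 35970 to 39600 and from 42330 to 48970. Between null and B6 the ciliated list had 4 of 7 tested probe sets called and the gland list 2 of 7. The macrophage and neutrophil list had 1 of 11, beside 2.18% of all tested probe sets. Between null and 129/Sv these counts were 0, 2 and 1, beside 2.04%. They were 0, 2 and 3 between B6 and 129/Sv, beside 5.19%, where 1 of 5 olfactory neuron probe sets was also called. The part of these lists in the members' differences was not tested.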

How the data were processed

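The authors deposited MAS5 signal intensities, per the submitters' processing notes (version not given in the sources used here), on a linear scale. With 2% of the values trimmed at each end, the mean was 1500.6 on every array, and no pair of arrays was identical. The table held 22690 probe sets, and 64 control probe sets were left out. Names came from the platform annotation (20380 probe sets with 1 symbol, 691 with several, 1555 with none), and a RefSeq gene table changed 0 symbols.

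Signals were turned into log2(signal + 16) and analysed probe set by probe set in R 4.3.3 with limma 3.58.1 (lmFit, eBayes with trend) with a mean per group over all 9 arrays. The fit was tested on simulated data. Figures used matplotlib 3.10.9 in Python 3.11.15. Tried alternatives were other scalings, pseudocounts of 1 and 64, other filters, 1 probe set per gene, plain probe sets only, other variance models, a replicate block, fits of fewer arrays and stricter calls. The labels give no batch. The members, lists and rules were chosen with earlier results of these data known. Named were the members called in a pairwise comparison, the 3 farthest from the family median on each side per pairwise comparison, the 5 highest and 5 lowest signals, genes with probe sets over 1 apart, paralogues, and up to 3 called probe sets (otherwise 2) per pathway list.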

Additional observations from a re-analysis of the deposited data

How the results depend on the processing

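The Rps9, Rps6 and Rplp0 differences called above between pairs of groups kept their calls in every alternative fit that included the probe set. These fits numbered 21 for Rps9 and 23 for Rps6 and Rplp0. With an added 2-fold threshold both Rplp0 calls were lost, and that of Rps6 against the mean of both strains was lost there and without null array 1. Main counts of called members were 4 for null against B6, 5 for null against 129/Sv, 3 against the mean, 6 for B6 against 129/Sv and 1 (Rps27) against both strains. Null against B6 gave 2 with no filter, with eBayes without trend and at an adjusted p of 0.01. An added 2-fold threshold gave 1. The count was also 2 with 1 probe set per gene and with plain probe sets only. Those fits did not include the called Rps9 and Rpl13a probe sets. Null against 129/Sv gave 3 without trend and at 0.01. B6 against 129/Sv gave 3 without trend and at 0.01, and 2 with the 2-fold threshold. The count against the mean was 5 with array weights and 5 with the replicate block. The count against both strains was 0 with no filter, with a filter at the 75th percentile, without trend, without B6 arrays 1 and 2, with only the groups compared, at 0.01 and with the 2-fold threshold. The median over members between B6 and 129/Sv was 0.027 with quantile normalization and 0.213 with plain probe sets, and the latter gave 0.165 between null and 129/Sv. Leaving out each array in turn gave 1 to 4, 3 to 5, 2 to 5, 3 to 6 and 0 to 1 calls in the order above, and medians between B6 and 129/Sv of 0.033 to 0.185. Same-numbered arrays of different groups had correlations of deviations from -0.075 to 0.096 over 7 pairs, beside -0.12 to 0.12 over 19 other pairs. Deviations were taken from the group mean, so those of the 2 129/Sv arrays mirror each other. With so few arrays these values cannot decide whether the numbers pair the arrays. With the replicate block the other counts were 4, 5 and 5, and 1 against both strains. The causes of the other changes were not tested.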

Other observations

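Probe sets that name a ribosomal protein gene together with other symbols, no members of the family as chosen, were called about as often as all tested probe sets. Of 93 tested, 6 were called in a pairwise comparison, 6.45% beside 6.43%. Probe set 1453752_at names Rpl17 and 3 further symbols (Rpl17-ps9, Rpl17-ps10 and Gm10362), and it had the pattern of the Rps9 probe set. Its signals were 359.8 and 422 on the 129/Sv arrays, 2324, 2333, 1714 and 1996 on the B6 arrays, and 339, 631 and 514 on the null arrays. The B6 arrays stood above all others. The 129/Sv and null signals lie near the array medians of 518.5 to 550 or below them, so the size of the fold is uncertain. The log2 difference was -2.08 between null and B6 arrays (SE 0.21, adjusted p = 0.000128) and 2.37 between B6 and 129/Sv (SE 0.24, adjusted p = 2.56e-05). Probe set 1423855_x_at, with the same 4 symbols, had -0.07 and 0.11 (adjusted p = 0.717 and 0.573).

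Probe set 1434328_at, naming Rpl15 and Gm10224, went the other way, with signals of 6019.5 and 5237 on the 129/Sv arrays, 3024, 2064, 2858 and 3413 on the B6 arrays, and 4717, 4732 and 4773 on the null arrays. It was higher in null than in B6 arrays (0.76, SE 0.14, adjusted p = 0.0115) and lower in B6 than in 129/Sv (-1.003, SE 0.16, adjusted p = 0.00197). The other Rpl15 probe set, 1449255_a_at, had 0.07 between B6 and 129/Sv (adjusted p = 0.721). Rpl5, which binds 5S ribosomal RNA, was higher in B6 than in 129/Sv at 2 of the 3 probe sets it shares with Rpl5-ps2 (0.47 and 0.83, adjusted p = 0.0154 and 0.0101). The Rpl31 probe set 1420381_a_at was higher in B6 than in 129/Sv too (0.78, adjusted p = 0.0132), while the other tested probe sets with the same symbols had 0.12, 0.07 and 0.07, and none was called.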
